A study of Sus scrofa with 15 samples.

Results

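Soy formula brings the isoflavones of soy together with soy protein, whereas genistein added to cow's milk formula brings 1 isoflavone together with milk protein. Testis RNA of piglets on these diets was compared directly, with 3 libraries of the soy formula group (Soy) against 3 libraries of the cow's milk formula with genistein group (M + G), which together are 6 of the 15 libraries of the series. All genes that passed a filter on low read counts were included, which left 15634 of the 30476 genes listed. The comparison asks in which testis genes feeding soy formula and feeding genistein alone differ. Because both groups were set against the same cow's milk formula group (Milk) in the study, the difference between Soy and M + G is also the difference between their effects relative to Milk.

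The piglets were male Dutch Landrace Duroc animals that stayed with the sow until postnatal day (PND) 2 and were killed on PND 21. In between, Soy piglets received soy formula (labelled soy protein isolate) and M + G piglets received cow's milk formula with genistein at 84 mg/L of diet. The 3 remaining groups received sow milk (Sow), Milk, or Milk plus 17β-estradiol (M + E2), and are given here as reference levels. The diets of Soy and M + G were built on different commercial formulas. Among other things they differ in protein source, in the other isoflavones of soy and in the source of genistein, and these differences cannot be told apart. Piglets were drawn from many litters, and the p-values measure the spread between single libraries, since the labels do not say more about the origin of each. One Soy column of the table carries no number and is called the unnumbered Soy library.

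Genistein is a plant phenol whose shape resembles that of estradiol, and it binds estrogen receptors weakly, with a preference for estrogen receptor β. In the neonatal testis, Sertoli cells and a small number of germ cells form the cords, while Leydig cells between the cords make androgens and, in the pig, large amounts of estrogens. Estrogen receptor ligands can act on the testis directly or through the pituitary gonadotropins that drive Leydig and Sertoli cells. The libraries were of whole testis, so fewer cells of a type and less RNA per cell cannot be told apart in any of the values that follow. Transcripts that define Leydig cells (STAR, CYP17A1, INSL3), Sertoli cells (AMH, FSHR) and germ cells (DDX4) were read in all 6 libraries. The 6 libraries held from 7763542 to 9488579 counted reads each.

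In the main fit, no gene met the study's thresholds of an adjusted p of at most 0.05 and a difference of at least 2-fold. Of 15634 genes, 0 (0%) were called by edgeR's quasi-likelihood F test with Benjamini-Hochberg adjustment, and the smallest adjusted p was 0.0592. At an unadjusted p under 0.05 there were 570 genes (3.65%), fewer than the 781.7 genes that this threshold would give if none differed. Of these, 338 (2.16%) were higher in M + G and 232 (1.48%) were higher in Soy, and without Soy 3 the count was 970. DESeq2's Wald test called 10 genes on the same libraries, and edgeR's exact test, the one used in the study, called 8 of 14505 genes on the 6 Soy and M + G libraries alone. The same fit called 0 genes for Soy against Milk and 0 for M + G against Milk, with 381 (2.44%) and 406 (2.60%) genes at an unadjusted p under 0.05. Against M + E2 it called 23 genes (0.147%) for Soy and 0 for M + G, with 2028 (13.0%) and 1096 (7.01%) at an unadjusted p under 0.05.

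Most differences were small and many were bounded. The median log2 fold change of Soy over M + G was 0.03 and the median size of the change, without its sign, was 0.17. In 322 genes (2.06%) the fitted difference was at least 2-fold. The Soy and M + G libraries did not overlap in 1267 genes (8.1%), with Soy above in 607 (3.88%) and M + G above in 660 (4.22%). For 10955 genes (70.1%) the 95% interval of the difference lay within 2-fold in either direction. This share followed the read depth of the gene, at 34.0% of the genes up to 9.08 CPM (mean over the libraries, in reads scaled to library size), 87.0% of those up to 39.6 CPM and 89.2% of those above, these being sets of 5212, 5211 and 5211 genes. For the remaining genes the interval reached past 2-fold or lay wholly beyond it, and the absence of a call does not show that they were alike.

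**Figure D1:**
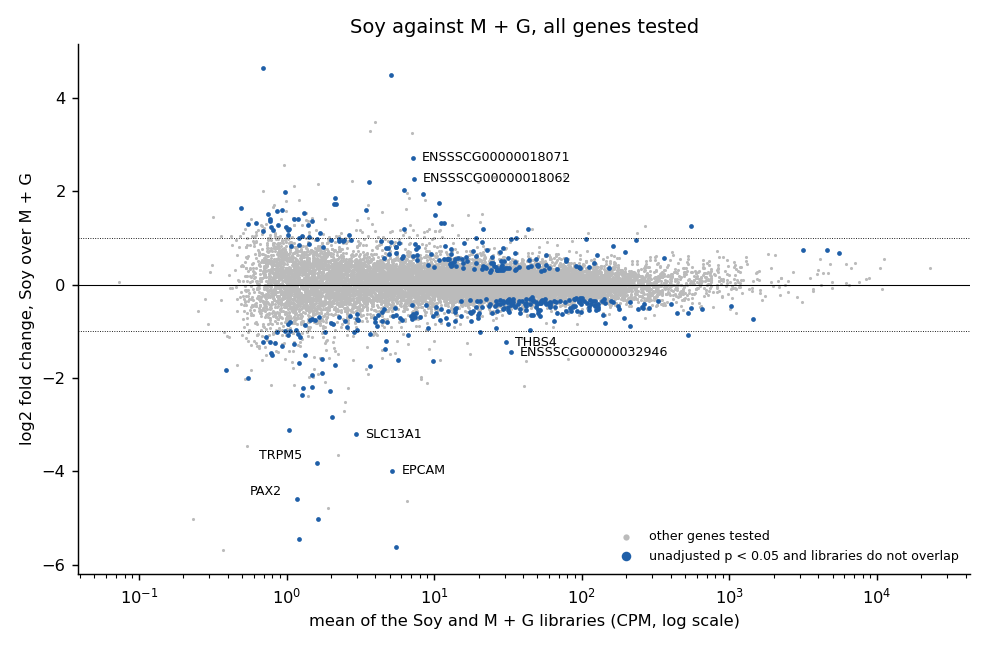
Each point is 1 of the 15634 genes tested, with the mean CPM of the Soy and M + G libraries on a log scale across and the log2 fold change of Soy over M + G upward, and dotted lines mark 2-fold. The cloud is centred near 0 (median 0.03) and narrows with the level of the gene, and the genes in blue, whose libraries do not overlap and whose unadjusted p is under 0.05, lie on both sides.

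The genes nearest to a call were 2 that carry an Ensembl identifier and no symbol, and they were singled out after their values were seen. ENSSSCG00000018071 was at 17.6 CPM in the unnumbered Soy library, 9.94 in Soy 2 and 9.61 in Soy 3, and at 2.62, 1.71 and 1.35 CPM in M + G 1, 2 and 3. Every Soy library was above every M + G library, and the fitted difference between the groups was 6.55-fold (log2 fold change 2.71, SE 0.37, quasi-likelihood adjusted p = 0.0592). The Sow libraries, at 14.2 and 18.5 CPM, lay with Soy, while Milk (1.75 to 4.28 CPM) and M + E2 (1.39 to 1.90 CPM) lay with M + G. The identifier number of this gene lies between those of the mitochondrial genes ND2 (ENSSSCG00000018069) and COX1 (ENSSSCG00000018075). Its position is not given here, and it may not be separate from the mitochondrial genes described below. ENSSSCG00000032946 had the opposite order, with 20.1, 17.5 and 15.7 CPM in Soy (unnumbered, 2 and 3) and 43.3, 46.9 and 54.9 CPM in M + G 1, 2 and 3. It was 2.73-fold higher in M + G (log2 fold change −1.45, SE 0.21, quasi-likelihood adjusted p = 0.0592). Its Sow libraries (15.9 and 17.2 CPM) again lay with Soy, and its Milk libraries ranged from 25.7 to 48.0 CPM.

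ENSSSCG00000018062 set Soy apart from all other diets. The Soy libraries were at 11.8, 12.2 and 12.3 CPM, and M + G 1, 2 and 3 were at 2.62, 2.67 and 2.25 CPM. The highest library of Sow, Milk and M + E2 was at 3.21 CPM. The fitted difference was 4.79-fold (log2 fold change 2.26, SE 0.38, quasi-likelihood adjusted p = 0.207), and it was 2.87 on the log2 scale for Soy against Milk and 0.61 for M + G against Milk. The study names this identifier as a mitochondrial gene, lists it as MT-TV and reports it as upregulated by soy formula relative to milk formula. It was likewise chosen here after its values were seen. Counts on mitochondrial transcripts can include reads from nuclear copies, which the counting may have split.

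ENSSSCG00000046140, which also has no symbol in the table, was nearly missing from Soy. It had 1, 0 and 4 reads in the Soy libraries (unnumbered, 2 and 3) and 199, 52 and 9 reads in M + G 1, 2 and 3. The groups did not overlap, and the ratio of M + G to Soy was 49.4 with a counting interval of 20.9 to 153. The spread within M + G was wide, from 1.01 to 26.1 CPM, and the fitted log2 fold change of −5.62 had an SE of 1.63 (quasi-likelihood adjusted p = 0.999). The other diets ranged as widely, with Sow at 10.8 and 20.8 CPM, Milk at 1.74 to 26.0 CPM and M + E2 at 0.727 to 16.7 CPM, and all of these libraries were above the highest Soy library (0.474 CPM). The study names this gene too, among those downregulated by soy formula, and it was picked here for its values.

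Among genes with a symbol, 10 in each direction were taken by a rule of size and are given as values, since none was called. They had an unadjusted p under 0.05, at least 2-fold, libraries that did not overlap and at least 1 CPM in 1 of the 2 groups. On the side of Soy these were OAZ3, GBA3, NXNL2, Y_RNA_4, MME, PROX2, FGL1, TMC2, SLC1A1 and P2RY14, with log2 fold changes from 1.01 (MME) to 2.02 (GBA3). The rule itself required the separation of the libraries, so this is a description and no test.

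GBA3 encodes a cytosolic β-glucosidase that can split plant glycosides, isoflavone glucosides among them. It was at 12.4, 11.4 and 6.29 CPM in Soy (unnumbered, 2 and 3) and at 3.01, 1.71 and 2.70 CPM in M + G 1, 2 and 3, a 4.06-fold difference (SE 0.43 on the log2 scale, quasi-likelihood adjusted p = 0.458). The Soy libraries were also above Milk (1.25 to 4.28 CPM) and M + E2 (0.760 to 1.58 CPM), and Soy 3 lay between the Sow libraries (4.84 and 6.90 CPM). Left out in turn, single libraries moved its log2 fold change between 1.81 and 2.27. DESeq2's Wald test and edgeR's exact test called it.

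OAZ3, on chromosome 4 (97439993 to 97448493 on Sscrofa11.1), is the germ cell member of the antizymes that restrain polyamine synthesis. Its levels were 3.01, 5.42 and 6.998 CPM in Soy against 1.96, 1.60 and 1.58 CPM in M + G. The Soy libraries were above those of every other group, of which the highest library was Milk at 2.85 CPM. The log2 fold change was 1.59 (SE 0.34). MME, on chromosome 13 (95018395 to 95122977), encodes neprilysin, a membrane peptidase. It was at 42.5, 57.0 and 43.1 CPM in Soy and 26.7, 26.9 and 17.4 CPM in M + G, while Sow (36.9 and 70.5 CPM) spanned and Milk (25.7 to 52.7 CPM) overlapped the Soy values.

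NXNL2, a thioredoxin-like gene, was at 18.3, 17.1 and 9.13 CPM in Soy against 6.29, 2.35 and 7.20 CPM in M + G (log2 fold change 1.49, SE 0.41). The Milk libraries (7.64 to 14.2 CPM) overlapped with Soy, and relative to Milk the fitted difference was 0.34 for Soy and −1.15 for M + G on the log2 scale. The glutamate transporter SLC1A1 (1.27), the nucleotide receptor P2RY14 (1.41), the hepatokine gene FGL1 (1.23), the channel-like gene TMC2 (1.17) and the homeobox gene PROX2 (1.40) had log2 fold changes on the side of Soy at low levels. No Soy library of these 5 genes was above 2.73 CPM, and no M + G library was above 1.13 CPM. Y_RNA_4 belongs to a family of near-identical small RNA genes, and its value (log2 fold change 1.75) is uncertain for that reason.

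**Figure D2:**
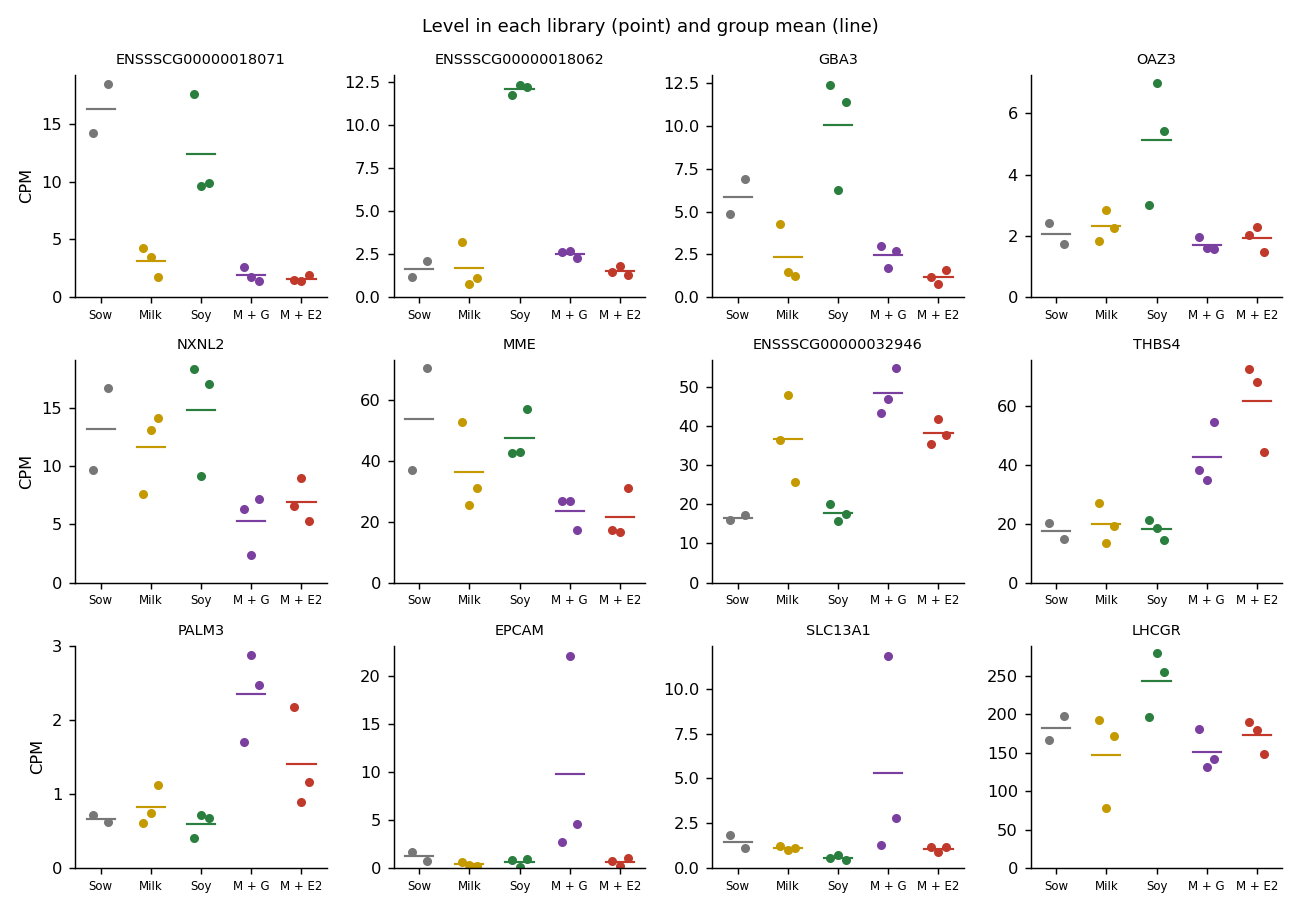
Each panel shows 1 gene in CPM, with a point for each of the 14 libraries and a line at the mean of each diet group. ENSSSCG00000018062 is at 11.8 to 12.3 CPM in the 3 Soy libraries and at most 3.21 CPM elsewhere, ENSSSCG00000018071 is high in Sow and Soy, and the M + G mean of EPCAM and SLC13A1 is pulled up by M + G 2 (22.1 and 11.8 CPM).

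On the side of M + G the genes described are EPCAM, PAX2, SLC13A1, PALM3, NOTUM, THBS4, TRPM5, GJB1 and KRT14. THBS4, a matrix thrombospondin on chromosome 2 (88729531 to 88780759), was at 38.4, 34.8 and 54.8 CPM in M + G 1, 2 and 3 and at 21.5, 14.5 and 18.7 CPM in Soy. Its difference was 2.34-fold (log2 fold change −1.23, SE 0.28, quasi-likelihood adjusted p = 0.550) and the log2 fold change lay between −1.36 and −1.01 under every alternative that gave a value. The M + E2 libraries were higher still (44.5 to 72.8 CPM), and the Milk libraries (13.6 to 27.2 CPM) lay with Soy. Thus M + G stood above Milk by 1.09 on the log2 scale, and Soy differed from Milk by −0.14.

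PALM3, which encodes a paralemmin, was at 1.70, 2.88 and 2.48 CPM in M + G and at 0.410, 0.677 and 0.712 CPM in Soy (log2 fold change −1.94, SE 0.41). GJB1, the gap junction protein connexin 32, was at 3.27, 4.05 and 4.16 CPM in M + G and at 2.46, 1.47 and 1.78 CPM in Soy (log2 fold change −1.02, SE 0.27). In both genes the 3 M + G libraries were close to each other. NOTUM, a secreted enzyme that inactivates Wnt ligands, had 57 reads in the M + G libraries together and 10 in the Soy libraries. Its log2 fold change ranged from −2.75 to −1.81 over the main fit and its alternatives.

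The remaining genes on that side were highest in M + G 2. EPCAM, an epithelial adhesion molecule on chromosome 3 (93169800 to 93185221), was at 2.75, 22.1 and 4.61 CPM in M + G 1, 2 and 3 and at 0.820, 0.903 and 0.119 CPM in Soy. The lowest M + G library was above every library of Sow (at most 1.71 CPM), Milk (0.611 CPM) and M + E2 (1.05 CPM). The log2 fold change was −3.98 (SE 0.81, quasi-likelihood adjusted p = 0.458), and −2.57 without M + G 2. PAX2, a transcription factor of the Wolffian duct and its derivatives, had 2 reads in Soy and 62 in M + G, a ratio of 29.4 with a counting interval of 7.82 to 249. That interval is for summed reads and leaves out the spread between libraries. Over the main fit and its alternatives the log2 fold change of PAX2 ranged from −7.22 to −4.04. The sulfate transporter SLC13A1 was at 1.31, 11.8 and 2.81 CPM in M + G against 0.547, 0.452 and 0.712 CPM in Soy (log2 fold change −3.20, SE 0.68, and −1.84 without M + G 2). The basal keratin gene KRT14 had a log2 fold change of −1.64, and of −0.88 without M + G 2. The cation channel gene TRPM5 had 5 reads in Soy against 83 in M + G, sums that do not show the spread between libraries. Its log2 fold change ranged from −4.47 to −3.52 over the main fit and its alternatives.

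Several of these genes are epithelial, and a list of epididymal or rete epithelium markers was therefore set beside them. Of its 16 listed genes in the table, 11 were tested, 0 were called, and 10 of 11 were higher in M + G, with a median log2 fold change of −1.62 beside 0.03 over all genes tested. An unadjusted p under 0.05 was reached by 8 of the 11 (2.16% of all genes in that direction), and 6 did not overlap with M + G above (4.22% of all genes). EPCAM and PAX2 are in both this list and the genes above. The study itself reports EPCAM and DEFB115, another gene of this list, as upregulated in M + G relative to Milk. Without M + G 2 the median was −0.77, with 8 of the 10 genes then tested higher in M + G, and among the 4 genes with at least 10 reads in every library it was −0.60. The members and their order were known when the list was used, so these counts describe the libraries and support no call.

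The epithelial cadherin CDH1 was at 2.36, 10.3 and 4.16 CPM in M + G 1, 2 and 3 and at 2.19, 1.47 and 1.42 CPM in Soy. The protease inhibitor SPINT1 (log2 fold change −1.88), the secreted protein WFDC2 (−1.38) and the tight junction protein CLDN4 (−0.81) did not overlap either. KRT7 (−2.22), CLDN7 (−1.62), KRT18 (−1.48) and CLDN3 (−0.40) overlapped, with M + G 1 among the Soy libraries in KRT7 and CLDN7. KRT8 was the 1 gene with a higher fitted level in Soy (0.27), at 133, 311 and 83.8 CPM in M + G and 152, 313 and 171 CPM in Soy, and it made up most of the summed level of the list. That sum ranged from 173 to 337 CPM in Soy and from 127 to 420 CPM in M + G.

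Some markers of the list were too low for the test. DEFB115, a β-defensin gene, had 0 reads in the 3 Soy libraries and 40 in the M + G libraries, at least 12.7-fold more against a floor of 3 reads over the group. It also had 0 reads in Milk and in M + E2. The 40 reads are a sum, and the floor leaves out the spread between libraries. How the reads of DEFB115 divide over the M + G libraries, and its level in Sow, are not given here. ELF3, an epithelial transcription factor, had 54 reads in M + G and 4 in Soy, and its M + G levels were 0.262, 5.44 and 0.113 CPM. CRISP1 (2 and 4 reads in M + G and Soy) and DEFB119 (8 and 9 reads) had few reads in both groups. How far epithelium in the sampled tissue entered into the differences of EPCAM, PAX2, SLC13A1 and TRPM5 was not tested.

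**Figure D3:**
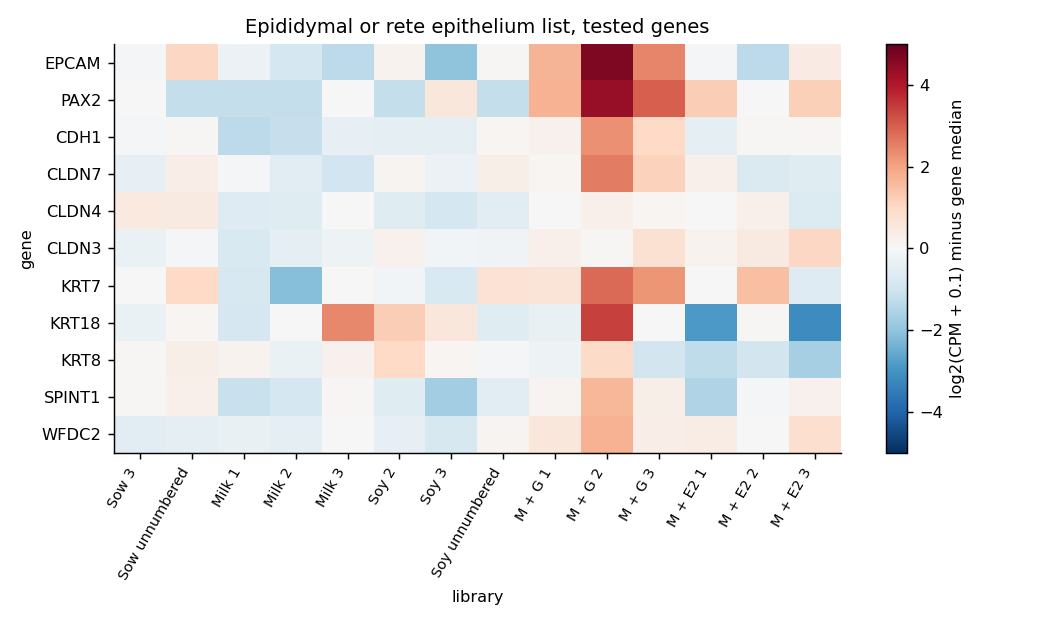
Rows are the 11 tested genes of the epididymal or rete epithelium list and columns the 14 libraries, and the colour gives log2(CPM + 0.1) minus the median of the gene over the libraries. M + G 2 is the reddest column (EPCAM at 22.1 CPM), M + G 3 is next, and M + G 1 is above all Soy libraries in 6 of the 11 genes, by the most in EPCAM and PAX2.

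No Leydig cell or steroidogenic gene was called. Of the 21 genes tested from this list, 12 had an interval within 2-fold and 16 were higher in Soy (76.2%, beside 55.2% of all genes), with a median log2 fold change of 0.13. When single libraries were left out, between 11 and 18 of the 21 were higher in Soy. STAR, which delivers cholesterol to the inner mitochondrial membrane, was at 4777, 4625 and 3677 CPM in Soy (unnumbered, 2 and 3) and at 3745, 3643 and 3232 CPM in M + G 1, 2 and 3. The groups overlapped, and the log2 fold change was 0.30 with a 95% interval from −0.50 to 1.10. CYP11A1, the side chain cleavage enzyme, differed by 0.08 (−0.62 to 0.77), and CYP17A1, which makes androgen precursors, by 0.14 (−0.60 to 0.88). Aromatase (CYP19A1), which makes estrogens, differed by 0.22 (−0.48 to 0.91), and the Leydig cell hormone INSL3 by 0.25 (−0.43 to 0.92). For these 4 genes a 2-fold difference lay outside the interval, whereas for STAR it lay just inside on the side of Soy.

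LHCGR, the receptor for luteinizing hormone on Leydig cells (chromosome 3, 91964415 to 92023821), was the gene of the list with the smallest unadjusted p. It was at 197, 254 and 279 CPM in Soy and at 180, 132 and 141 CPM in M + G, without overlap. The log2 fold change was 0.69 (SE 0.28, interval 0.09 to 1.28, quasi-likelihood adjusted p = 0.999). All Milk (78.2 to 192 CPM) and M + E2 (149 to 189 CPM) libraries lay below the Soy libraries, and Sow (166 and 197 CPM) reached the lowest of them. SRD5A1, the 5α-reductase that makes dihydrotestosterone, was at 189, 301 and 278 CPM in Soy and at 272, 105 and 165 CPM in M + G, with overlap (0.51, interval −0.32 to 1.33).

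Sertoli cell genes had the opposite tendency in sign, with 21 of 27 tested genes higher in M + G and a median log2 fold change of −0.17. None was called, none had an unadjusted p under 0.05, and between 18 and 22 were higher in M + G when single libraries were left out. INHA, the α subunit of inhibin, was at 1002, 908 and 568 CPM in Soy and at 1317, 758 and 1506 CPM in M + G (−0.53, interval −1.16 to 0.10). AMH, the anti-Müllerian hormone, was at 557, 604 and 457 CPM in Soy and at 712, 564 and 866 CPM in M + G (−0.40, interval −0.99 to 0.18). M + G 2 was the lowest M + G library in both genes and lay within the Soy range. FSHR, the receptor for follicle-stimulating hormone, differed by −0.14 (−0.82 to 0.54), and INHBB, an inhibin and activin subunit, by −0.50 (−1.40 to 0.41). The activin antagonist FST had an interval from −2.05 to 1.55, and its M + G levels were 3.14, 13.3 and 1.69 CPM. The summed level of the Sertoli list was 7802 to 10109 CPM in Soy and 7767 to 12892 CPM in M + G.

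In the germ cell list, 17 of 23 genes were tested, 0 were called, and 11 were higher in Soy with a median of 0.06. DDX4, the germ cell RNA helicase, was at 7.11, 6.44 and 3.20 CPM in Soy and at 6.29, 3.73 and 3.49 CPM in M + G (0.31, interval −0.55 to 1.18). KIT, the receptor of stem cell factor, was at 119, 172 and 223 CPM in Soy and at 86.3, 152 and 124 CPM in M + G (0.50, interval −0.04 to 1.05). Leydig cells also carry KIT, so its level is not that of germ cells alone. ETV5, a transcription factor of Sertoli and germline stem cells, had the narrowest interval of the named genes of this list (−0.52 to 0.14).

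No estrogen receptor or estrogen-responsive gene was called. Of 25 tested genes, 16 were higher in M + G and the median was −0.12. ESR1, estrogen receptor α, was at 13.7, 16.1 and 15.9 CPM in Soy and at 16.4, 18.8 and 17.4 CPM in M + G. The libraries did not overlap, but the difference was small (−0.20, interval −0.69 to 0.29). ESR2, estrogen receptor β, was at most 1.37 CPM in the 6 libraries, and its interval ran from −1.03 to 1.09. The estrogen targets PGR (0.01, interval −0.82 to 0.84) and GREB1 (−0.23, interval −1.08 to 0.62) overlapped, with GREB1 at 41.5 CPM in Soy 3 and 41.9 CPM in M + G 3 against 14.5 to 22.3 CPM in the other 4 libraries. The 2 members with the smallest unadjusted p were CCN5 (−0.60) and MYC (−0.51), both on the side of M + G. Of 19 tested genes of gonadotropin response, 10 were higher in Soy, the median was 0.03 and LHCGR was 1 of the 2 with an unadjusted p under 0.05.

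**Figure D4:**
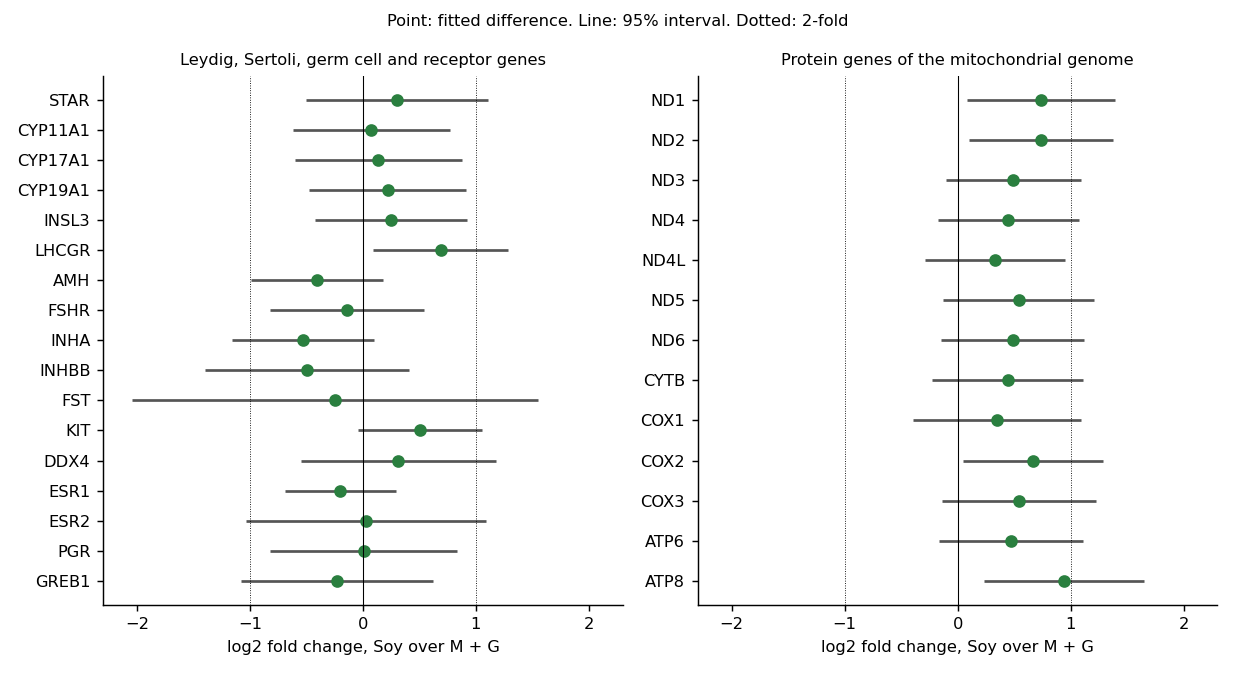
Points are fitted log2 fold changes of Soy over M + G and lines their 95% intervals, for genes of Leydig, Sertoli and germ cells and hormone receptors on the left and for the 13 protein genes of the mitochondrial genome on the right, with dotted lines at 2-fold. Only LHCGR on the left has an interval above 0 (0.09 to 1.28), and all 13 points on the right are above 0.

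The protein genes of the mitochondrial genome were all higher in Soy by their fitted values. All 13 had a log2 fold change above 0 (55.2% of all genes did), with a median of 0.49 and a range from 0.33 (ND4L) to 0.94 (ATP8). None was called, and 4 (ATP8, ND2, ND1 and COX2) had an unadjusted p under 0.05 (1.48% of all genes with Soy higher) and no overlap (3.88% of all genes with Soy above). ATP8, an ATP synthase subunit, was at 293, 366 and 255 CPM in Soy (unnumbered, 2 and 3) and at 236, 111 and 129 CPM in M + G 1, 2 and 3. ND2, a subunit of complex I, was at 3949, 4588 and 3268 CPM in Soy and at 3112, 1981 and 1971 CPM in M + G. M + G 1 lay close to Soy 3 in both genes, and M + G 2 and M + G 3 lay below. COX1, the catalytic subunit of cytochrome c oxidase, overlapped at 28478, 29528 and 18668 CPM in Soy against 25693, 16163 and 18288 CPM in M + G (0.35, interval −0.39 to 1.09).

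These 13 genes sit on 1 transcribed genome and move together, so they are not 13 separate observations. Their share of all counted reads was 8.18%, 9.65% and 6.72% in Soy and 7.63%, 5.05% and 5.65% in M + G. It was 7.74%, 4.49% and 6.26% in Milk 1, 2 and 3, from below the lowest M + G library to within the Soy range. The median log2 fold change stayed between 0.36 and 0.76 when single libraries were left out, and all 13 stayed above 0. Levels in Sow lay within the Soy range for most of them, and M + E2 lay below or at the lower end of M + G, as for ND2 (3347 and 3441 CPM in Sow, 1346 to 1688 CPM in M + E2). ATP8 (MT, 8959 to 9162) overlaps ATP6 (9120 to 9800), ND4L (11069 to 11365) overlaps ND4 (11359 to 12736) and ND5 (12935 to 14755) overlaps ND6 (14739 to 15266), and strand was not stated for the counting, so reads in the shared bases cannot be assigned with certainty.

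Nuclear genes of oxidative phosphorylation were higher in Soy in 52 of 64, with a median of 0.22. The 2 complex I genes NDUFA6 (0.67, interval 0.28 to 1.05) and NDUFA1 (0.90, interval 0.13 to 1.67) did not overlap, with Soy above (3.88% of all genes). With M + G above, 1 of the 64 did not overlap (4.22% of all genes). The order of the list rested on 1 library: without the unnumbered Soy library, 16 of 64 were higher in Soy and the median was −0.12. Cytoplasmic ribosomal protein genes did the same, with 46 of 57 higher in Soy and a median of 0.19, and 4 of 57 and −0.29 without that library. RPS29 was at 762 CPM in the unnumbered Soy library, at 426 and 321 CPM in Soy 2 and 3, and at 264, 407 and 258 CPM in M + G. The unnumbered Soy library thus set the direction of both lists, whereas the mitochondrial genes were higher in Soy without it as well (median 0.49).

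Over the 31 lists, 12 kept the sign of their median without each single library and 19 did not. Lists of diet-responsive metabolism lay near the median of all genes. In cholesterol synthesis and uptake 16 of 29 tested genes were higher in Soy (median 0.03), in fatty acid and PPAR target genes 16 of 28 (0.05), in xenobiotic metabolism 16 of 27 (0.06) and in glycolysis 18 of 27 (0.10). FADS2, the desaturase at the first step to long-chain polyunsaturated fatty acids, was at 242, 236 and 228 CPM in Soy and at 385, 328 and 290 CPM in M + G, without overlap (−0.51, interval −0.99 to −0.03). The next gene of that path, ELOVL5, overlapped (0.32, interval −0.08 to 0.72). ARRDC4, an arrestin-like gene that follows glucose supply, was at 38.5, 43.9 and 41.3 CPM in Soy against 28.7, 33.2 and 26.9 CPM in M + G (0.48, interval 0.13 to 0.83), while its relative TXNIP overlapped (0.16, interval −0.28 to 0.60).

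The 2 genes of the stress list with the smallest unadjusted p were on the side of M + G. HSP90B1, the chaperone of the endoplasmic reticulum, was at 586, 489 and 520 CPM in Soy and at 817, 730 and 764 CPM in M + G (−0.53, SE 0.17, interval −0.90 to −0.17). CALR, calreticulin, was at 915, 815 and 878 CPM in Soy and at 1175, 1158 and 1237 CPM in M + G (−0.45, SE 0.17, interval −0.82 to −0.09). Neither overlapped, and the whole list of amino acid and unfolded protein stress had 13 of 26 genes in each direction and a median of 0.00. GHR, the growth hormone receptor (chromosome 16, 27126300 to 27422618), was at 33.2, 32.1 and 38.5 CPM in Soy and at 17.8, 26.8 and 19.7 CPM in M + G (0.69, SE 0.19, interval 0.27 to 1.11). IRS2, a docking protein of the insulin and insulin-like growth factor receptors, was at 10.9, 10.4 and 10.8 CPM in Soy and at 24.0, 13.2 and 21.0 CPM in M + G (−0.86, interval −1.80 to 0.09). The list of the insulin-like growth factor axis had 10 of 20 genes in each direction. Without Soy 3 it had 2 of 20 higher in Soy, and without the unnumbered Soy library 13 of 20.

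Iron and antioxidant genes were on the side of Soy in 11 of 17 and 25 of 31, with medians of 0.20 and 0.11. Without the unnumbered Soy library the antioxidant list had 17 of 31 on that side and the iron median was 0.09. The metal ion importer SLC39A8 did not overlap (0.55, interval 0.12 to 0.99), nor did ceruloplasmin, CP, on the side of M + G (−0.84, interval −1.56 to −0.13). PRDX3, a mitochondrial peroxiredoxin, was at 2295, 1543 and 820 CPM in Soy and 1296, 1041 and 764 CPM in M + G, with wide overlap. SULT1E1, the sulfotransferase that inactivates estrogens, had a log2 fold change of 3.23 (interval 0.08 to 6.39), but only Soy 3 was high, at 35.0 CPM against 2.60 and 1.02 CPM in the other Soy libraries and 0.900 to 1.70 CPM in M + G. One Milk library was also high, at 28.1 CPM.

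**Figure D5:**
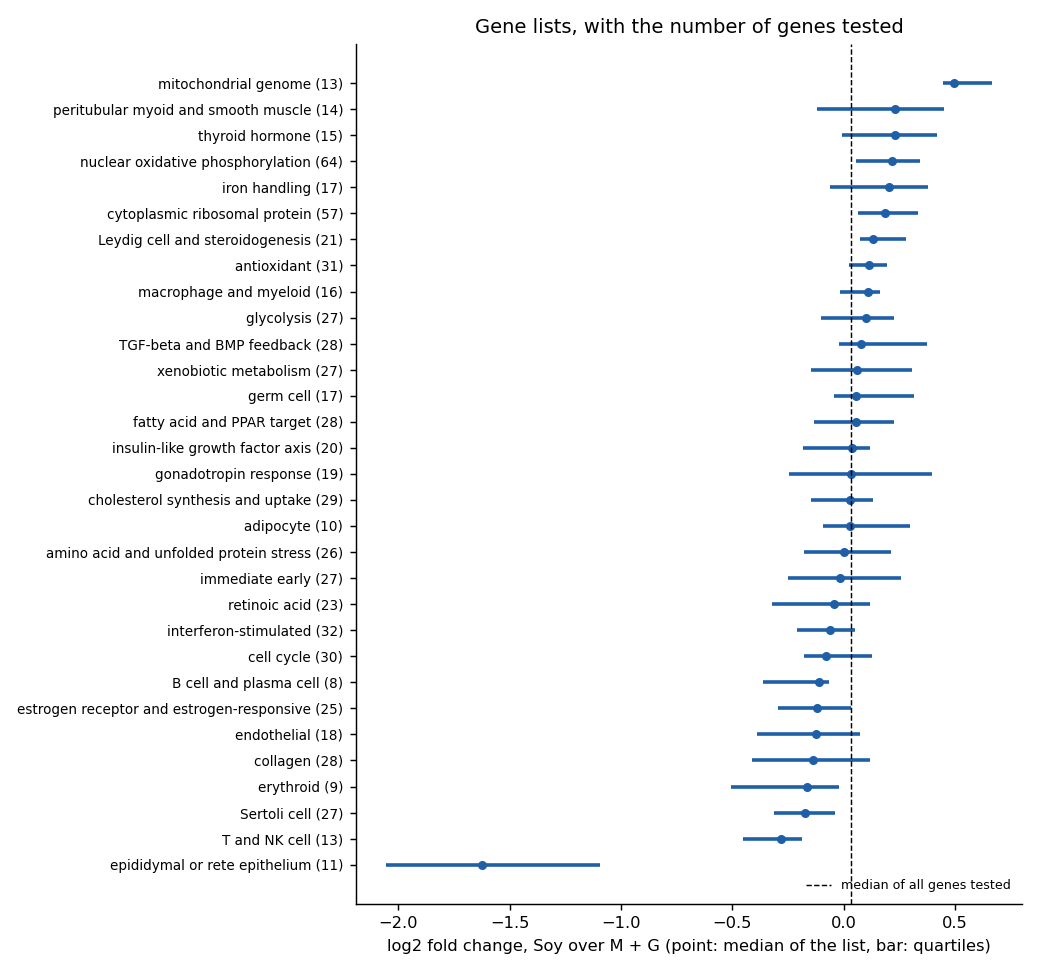
Points are the median log2 fold change of Soy over M + G of each list and bars its quartiles, with the number of genes tested in brackets and a dashed line at the median of all genes (0.03). All but 2 medians lie between −0.28 (T and NK cell) and 0.23, the exceptions being the mitochondrial genome (0.49) and the epididymal or rete epithelium (−1.62).

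Stromal and vascular genes depended on Soy 3 and M + G 2. The summed level of 14 peritubular myoid and smooth muscle genes was 1508, 1813 and 7228 CPM in Soy (unnumbered, 2 and 3) and 2091, 4948 and 1990 CPM in M + G 1, 2 and 3. Their median log2 fold change was 0.23, with 9 of 14 higher in Soy, but −0.80 with 0 of 14 higher in Soy when Soy 3 was left out. ACTG2, a smooth muscle actin, was at 347 CPM in Soy 3, 10.7 and 23.7 CPM in the other Soy libraries and 11.4, 51.0 and 13.6 CPM in M + G. Collagen genes had a median of −0.14, which ranged from −0.84 to 0.23 without single libraries, and endothelial genes one of −0.12, which ranged from −0.55 to 0.10, both lowest without Soy 3. The part of these libraries' stromal content in other differences was not tested.

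APLN, the ligand of the apelin receptor, and GPR4, a proton-sensing receptor, were the endothelial genes with the smallest unadjusted p. APLN was at 58.1, 70.0 and 60.02 CPM in Soy and at 102, 81.4 and 94.4 CPM in M + G (−0.56, interval −1.02 to −0.11), and the Sow libraries were at 29.8 and 32.2 CPM. GPR4 was at 7.24, 8.69 and 8.30 CPM in Soy and at 13.1, 12.7 and 11.3 CPM in M + G (−0.61, interval −1.05 to −0.17). Neither overlapped, and Soy 3, the library high in stromal genes, lay between the other Soy libraries in both. COL9A3 (46.9, 256 and 57.2 CPM in M + G) and COL26A1 (3.80, 31.0 and 4.39 CPM) were high in M + G 2 alone, as was the retinoic acid-forming enzyme ALDH1A1 (42.4, 126 and 20.6 CPM). STRA6, the retinol uptake receptor, did not overlap (−1.21, interval −2.16 to −0.26) and was also highest in M + G 2, at 10.7 CPM.

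Among signalling lists, BMPR1B, a bone morphogenetic protein receptor, was at 5.33, 10.7 and 6.52 CPM in Soy and at 3.93, 4.69 and 3.60 CPM in M + G (0.89, interval 0.23 to 1.55). Its ligand BMP7 was on the side of M + G (−1.73, interval −3.04 to −0.42), with M + G 2 at 6.40 CPM and the other M + G libraries at 1.44 and 1.91 CPM. The TGF-β and BMP feedback list as a whole had 19 of 28 genes higher in Soy and a median of 0.08, but 7 and −0.28 without Soy 3. Of 27 immediate early genes, 16 were higher in M + G (median −0.02), and FOSL2 did not overlap (−0.62, interval −1.16 to −0.07). Cell cycle genes (13 of 30 higher in Soy, median −0.08) had 29 of 30 intervals within 2-fold, the highest share among the 31 lists. Thyroid hormone genes had 11 of 15 higher in Soy (0.23), but 5 of 15 without Soy 3 (−0.09). Retinoic acid genes had 9 of 23 higher in Soy (−0.04), and a median of 0.22 without M + G 2.

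No marker of blood or immune cells was called. Macrophage genes were higher in Soy in 11 of 16 (median 0.11), T and NK cell genes in 3 of 13 (−0.28), B cell genes in 1 of 8 (−0.11), interferon-stimulated genes in 12 of 32 (−0.06) and adipocyte genes in 7 of 10 (0.03). Erythroid genes were higher in M + G in 7 of 9 (−0.17), and their summed level ranged from 535 to 993 CPM in Soy and from 472 to 1393 CPM in M + G. With Soy above, no overlap was found for 1 of 10 adipocyte genes (3.88% of all genes). With M + G above, 2 of 32 interferon-stimulated genes and 1 of 9 erythroid genes did not overlap (4.22% of all genes). The erythroid gene was SLC4A1, the anion exchanger of red cells (−1.67, interval −3.19 to −0.15), at 0.452 to 0.712 CPM in Soy and 1.39 to 2.70 CPM in M + G.

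Of the genes that the study or earlier results on these libraries name for 1 of the diets, those not described above overlapped between Soy and M + G, with intervals that include 2-fold. SMAD6, an inhibitor of BMP signalling, was at 10.1, 14.7 and 42.2 CPM in Soy and at 11.5, 17.9 and 17.3 CPM in M + G (0.52, interval −0.49 to 1.53, and −0.33 without Soy 3). PHYHIPL was at 25.9 and 58.6 CPM in Sow and at no more than 3.54 CPM in any Soy or M + G library (−0.29, interval −1.50 to 0.93). NRIP2 (0.32, interval −0.36 to 1.01) and GLB1L2 (0.35, interval −0.69 to 1.40) overlapped. FOXL2, a factor of ovarian granulosa cells, had 3 reads in Soy, all in the unnumbered library, and 0 in M + G, and it was not tested.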

How the data were processed

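Trimmed reads were mapped by the authors with CLC Genomics Workbench 20.01 to a porcine gene library and the Ensembl pig genome. The deposited values are counts of reads per gene and library, without normalization. Whether they hold all reads, or those left after the gene library, is not given in the sources used here. Strand was not stated. In R 4.3.3, counts were scaled by edgeR 4.0.16 (TMM), filtered with filterByExpr (minimum count 10) and compared with the quasi-likelihood F test in 1 fit of 5 groups and 14 libraries, without Sow 2, which the study left out. Differences are Soy minus M + G, with 95% intervals from the fit. Totals ranged from 6097552 to 9488579 reads per library (median 8198038), and intervals and floors on reads cover counting error only. No replicate pair of Soy or M + G agreed within sampling noise (chi-square per degree of freedom at least 12.3). DESeq2 1.42.0 and edgeR served for alternatives. Scripts were tested on simulated data. The 31 gene lists, the named genes and the comparison were chosen with earlier results of these data known. Named genes were the 10 per direction described above, the 2 smallest unadjusted p of each list, and fixed genes of steroidogenesis, Sertoli and germ cells, estrogen receptors and the study. Symbols came from the table (16446) and a RefSeq table of Sscrofa11.1 (798), which gave the positions. DAZL, KRT19, HSD3B1 and CXCL13 were not analysed here. Of the genes that these rules select, 2 are not reported here. The number of columns left unused was 0.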

Additional observations from a re-analysis of the deposited data

How the results depend on the processing

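The count of 0 called genes became 10 with DESeq2's Wald test, 8 with edgeR's exact test on the 6 Soy and M + G libraries alone, 3 without a filter on low counts and 2 with all 15 libraries. It was 0 with DESeq2 size factors, at least 10 counts in every library, a fit of Soy and M + G only or with Milk, adjusted p alone, and without each of the 6 libraries. ENSSSCG00000018071 and ENSSSCG00000032946 were each called in 4 of these settings and ENSSSCG00000018062 in 3. GBA3, THBS4, ENSSSCG00000018064 and ENSSSCG00000018073 were called in 2, and EPCAM, SLC13A1, ENSSSCG00000022176 and ENSSSCG00000042862 in 1. ENSSSCG00000018064 and ENSSSCG00000018073 were higher in Soy, with log2 fold changes of 2.20 and 1.94 in DESeq2's Wald test. Like ENSSSCG00000018071, they have identifier numbers among those of mitochondrial genes, from ENSSSCG00000018062 to CYTB (ENSSSCG00000018094). Calls of these identifiers may therefore not be separate observations. The 570 genes at an unadjusted p under 0.05 became 339 with the exact test on those 6 libraries, 372 in the fit of Soy and M + G only and 339 with Milk added, and ranged from 425 to 970 without single libraries, the highest without Soy 3. The count of intervals within 2-fold ranged from 9420 to 9945 without single libraries. The cause of these changes was not tested. With the replicate number as a block, on the numbered libraries only, 0 genes were called and 506 had an unadjusted p under 0.05. The numbers were not shown to pair the samples, since Soy 2 with M + G 2 had r = −0.39 and Soy 3 with M + G 3 had r = −0.02. Of 46 genes followed, 36 kept their sign under all 15 alternatives that gave a value. The 46 include the 10 per direction that were chosen for size and for libraries that did not overlap. The sign of those could hardly change, so the count is no measure of stability. The genes that changed sign were all fixed genes: CYP11A1, CYP17A1, ESR2, FSHR, FST, GLB1L2, GREB1, PGR, PHYHIPL and SMAD6. The list medians shifted from the main fit by less than their replicate spread in 383 of the results, and by more in 20. A shift within the spread could still reverse the sign, as for ribosomal protein genes (0.19, and −0.29 without the unnumbered Soy library). With 3 libraries per diet and few reads, the 5212 genes of lowest level had a median interval half-width of 0.87 on the log2 scale, beside 0.46 in the 5211 of highest level.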
